A study of Mus musculus with 10 samples.

Results

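Basement membranes are thin sheets of extracellular matrix that wrap each adipocyte and underlie the endothelium of the capillaries in white adipose tissue (WAT). A network of laminins, anchored to receptors on the cell surface, and a network of collagen IV form the sheet, and nidogens and the heparan sulfate proteoglycan perlecan link the networks. The RNA of 10 genes of this structure was measured in visceral WAT. They were Col4a1 and Col4a2 for the chains of collagen IV, Col15a1 and Col18a1 for collagens XV and XVIII, Lama4, Lamb1 and Lamc1 for 3 laminin chains, Nid1 and Nid2 for the nidogens, and Hspg2 for perlecan. The genes were taken by symbol, and each was found once among the 47937 genes listed per library. All 10 passed the filter on low counts in every comparison. Each has 5174 to 14307 bases of exon, which is long for a mouse gene, so values are also set beside those of genes of similar length.

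WAT came from C57BL/6 mice that were wild type (Mof+/+) or heterozygous (Mof+/-) for Mof, also called Kat8, a histone acetyltransferase gene whose loss was carried by all cells of the mouse and not by adipocytes alone. On standard diet (SD), 3 Mof+/+ and 3 Mof+/- libraries came from mice of 8 weeks. On high-fat diet (HFD), 2 libraries per genotype came from mice described as 27 weeks old after 20 weeks of HFD, so diet and age cannot be told apart. The study's text and its notes to the deposit differ on the length of the HFD, and its methods give male mice.

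Several libraries stood apart, and the results below rest on them. Counts on genes ranged from 1044355 in HFD Mof+/- replicate 1 to 17171947 in SD Mof+/- replicate 1. Kat8 was at 20.4 to 21.5 CPM (a gene's share of all counts on genes in its library) in SD Mof+/+ and at 11.5 to 18.8 CPM in SD Mof+/-. It was at 18.1 and 19.2 CPM in HFD Mof+/+, and at 20.1 CPM (21 counts, 95% exact binomial interval 12.4 to 30.7) in replicate 1 of HFD Mof+/- and 10.5 CPM in replicate 2, so replicate 1 did not show the lower Kat8 of its label. Xist was at 46.1 to 139 CPM in the 3 SD Mof+/- libraries and at 0 in all others. The Y-linked genes Ddx3y, Eif2s3y, Kdm5d and Uty were all at 0 in those 3 libraries and together in no other. Kdm5d and Uty were also at 0 in HFD Mof+/- replicate 1, where Ddx3y and Eif2s3y were at 49.8 and 27.8 CPM. On SD the genotype and the sex of the mice therefore cannot be told apart. The same holds for diet and sex in Mof+/-, and for the interaction. The column headings inside the files place replicate 3 of each SD genotype in the opposite genotype. In HFD Mof+/- replicate 1, skeletal muscle markers summed to 60611 CPM and mitochondrial genes took 26.9% of the counts, against 8.17 to 84.9 CPM of muscle markers in the SD and HFD Mof+/+ libraries and 1511 CPM in HFD Mof+/- replicate 2. Adipocyte markers were present in every library, with sums of 4836 to 35736 CPM.

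Sequences at the starts of 5 of the genes are shown first. Col4a1 (chromosome 8, 11198423 to 11312826, minus strand, GRCm38) and Col4a2 (chromosome 8, 11312805 to 11449287, plus strand) lie head to head, and their first exons overlap by 22 bases. The shared stretch, chr8:11312805-11312826 on the plus strand, is shown with the letters GGGCGG, the core of a GC box, in capitals.
Col4a1 and Col4a2 overlap: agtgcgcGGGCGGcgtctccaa
Sequence before a RefSeq start is shown for Col15a1, Lamb1 and Col18a1. The first 2 had the highest positive fold changes between genotypes on SD, and Col18a1 is the homologue of Col15a1. The stretches of Lamb1 and Col18a1 end where the first exon begins. That of Col15a1 ends at 47208011, short of the gene's start at 47208161 used for its length, and the bases between were not searched. Col18a1 has another RefSeq start, which is not shown. The capitals mark CCAAT (the CCAAT box), GGGCGG and TATAAA (the TATA box) on either strand, searched without regard to overlap.
Col15a1, chr4:47207762-47208011, plus strand: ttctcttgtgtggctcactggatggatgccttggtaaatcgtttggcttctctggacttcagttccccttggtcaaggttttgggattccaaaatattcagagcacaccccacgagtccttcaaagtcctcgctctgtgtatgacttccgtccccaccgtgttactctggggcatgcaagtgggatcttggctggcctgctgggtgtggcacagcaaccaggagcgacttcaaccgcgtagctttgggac
Lamb1, chr12:31265043-31265233, plus strand: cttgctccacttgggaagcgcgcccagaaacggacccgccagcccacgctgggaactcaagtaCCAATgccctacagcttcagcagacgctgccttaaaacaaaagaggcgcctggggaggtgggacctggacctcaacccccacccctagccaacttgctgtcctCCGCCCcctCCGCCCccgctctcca
Col18a1, chr10:77166549-77166780, minus strand: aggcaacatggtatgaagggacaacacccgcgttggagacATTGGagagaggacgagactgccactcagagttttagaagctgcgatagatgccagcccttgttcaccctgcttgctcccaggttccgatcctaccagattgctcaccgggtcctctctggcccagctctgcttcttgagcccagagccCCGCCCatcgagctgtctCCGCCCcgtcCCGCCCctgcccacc
The Lamb1 stretch held 1 CCAAT on the plus strand and GGGCGG 2 times on the opposite strand. The Col18a1 stretch held CCAAT 1 time and GGGCGG 3 times, all on the strand opposite to the gene, and the 250 bases shown for Col15a1 held none of these letters. Of 32851 RefSeq promoters (GRCm38.p6) read over 250 bases before the start, 33.8% held CCAAT, 32.7% held GGGCGG and 12.4% held TATAAA on either strand. A match describes the letters and is not a binding site. RefSeq promoters were matched for 7 of the 10 genes.

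Per kb of exon, collagen IV was the most abundant of the 10 genes. In SD Mof+/+, Col4a1 was at 182 ± 43.1 CPM per kb (SD, n = 3), Col4a2 at 148 ± 48.8 and Nid1 at 117 ± 23.7. These 3 ranges overlapped in turn, and Nid1 did not overlap Col15a1, the fourth, at 74.3 ± 16.3 CPM per kb. Lamc1 (56.2 ± 7.81), Hspg2 (38.9 ± 14.4), Nid2 (34.0 ± 14.0), Lamb1 (25.5 ± 2.80), Col18a1 (24.1 ± 3.92) and Lama4 (22.0 ± 4.42 CPM per kb) followed, and each overlapped the next. Exonic length covers all transcripts of a gene. It is 12068 bases for Lama4 and 9917 for Lamb1, whose longest transcripts have 6046 and 5784 bases. The places of these genes thus depend on the length used. By mean CPM, Lama4 (265) and Lamb1 (253) were above Nid2 (176) and Col18a1 (169). Col4a1 was first in all 4 groups. In SD Mof+/-, all neighbours in the order overlapped, and Nid1 and Col15a1, at 96.2 ± 47.9 and 89.6 ± 19.6 CPM per kb (SD, n = 3), came before Col4a2 at 62.7 ± 31.2. Together the 10 genes took 4087 to 6486 CPM in SD Mof+/+, 2358 to 5408 CPM in SD Mof+/-, 3628 and 4597 CPM in HFD Mof+/+, and 1510 and 4309 CPM in HFD Mof+/-.

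**Figure D1:**
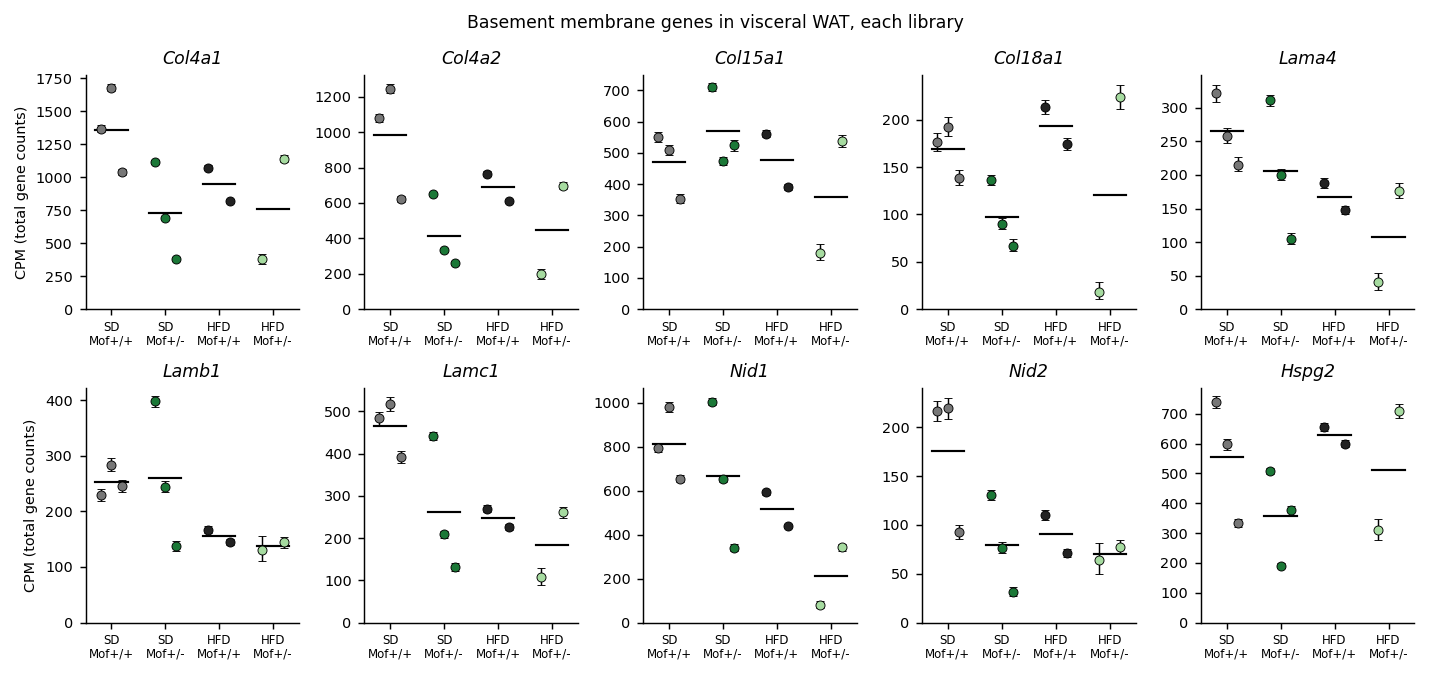
CPM of each basement membrane gene in each of the 10 libraries, by genotype and diet. Points are libraries with 95% exact binomial intervals, which cover counting error only, and lines are group means. The points of HFD Mof+/- replicate 1, on the left in that group, lie lowest of the group for all 10 genes.

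Within a group, the 10 genes mostly ranked the libraries alike. All 10 were highest in replicate 1 of SD Mof+/-, against 42.3% of 11309 genes with a mean of at least 50 counts. In SD Mof+/+, 9 of the 10 were lowest in replicate 3, against 31.4% of those genes. All 10 were higher in HFD Mof+/+ replicate 1 than in replicate 2 (49.8% of those genes), and all 10 were higher in HFD Mof+/- replicate 2 than in replicate 1 (70.2%). These counts are on the CPM scale, and the genes are not independent of each other. The shares are over genes of all lengths, and shares among genes of like length were not taken. Spearman's rho across genes between length and centred log2 CPM was 0.08, -0.15 and -0.29 in SD Mof+/- replicates 1 to 3. It was 0.28, 0.31 and 0.23 in SD Mof+/+. For HFD it was 0.02 and -0.05 in Mof+/+ and -0.04 and -0.14 in Mof+/-.

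The first question was whether WAT of Mof+/- mice on SD differed from that of Mof+/+ mice in these genes. None of the 10 passed an adjusted p of 0.05 with edgeR's quasi-likelihood test, where 5.24% of the 13864 genes tested did. DESeq2 also called none, where it called 15.9% of all genes, and 1 gene, Col4a2, had an unadjusted p under 0.05 with edgeR, where 11.6% of all genes had one in the lower direction and 14.1% in the higher. The log2 fold change was negative for 7 genes and positive for 3, with a median of -0.36 beside -0.07 over all genes. Fold changes were fitted after TMM normalization, whose factors over all 10 libraries were 1.13 to 1.18 in SD Mof+/+ and 0.842 to 0.917 in SD Mof+/-. With scaling by total counts alone, the median was -0.72 beside -0.43 over all genes and none was called.

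Collagen IV is a meshwork of α1 and α2 chains, and Col4a2 had the largest negative value of these genes, followed by Nid2. Col4a1 was at 1366, 1680.0 and 1036 CPM in SD Mof+/+ and at 1116, 691 and 383 CPM in SD Mof+/-. Col4a2 was at 1082, 1244 and 622 CPM against 649, 334 and 261 CPM. For both, the highest Mof+/- library lay just above the lowest Mof+/+ library on this scale, so the groups overlapped. The overlap was larger after TMM normalization. Col4a1 was then at 1219 CPM in Mof+/- replicate 1, against 1201, 1488 and 878 CPM in Mof+/+. Col4a2 was at 709 CPM in that library, against 951, 1102 and 527 CPM. The log2 fold change of Col4a2 was -0.91 (95% interval -1.80 to -0.02, SE 0.39), with an unadjusted p of 0.0453 and an adjusted p of 0.185 from edgeR, and that of Col4a1 was -0.57 (SE 0.37, adjusted p = 0.378).

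The multiplexins, collagens XV and XVIII, sit at the outer face of basement membranes and hold an endostatin domain at their ends. Col15a1 (chromosome 4, 47208161 to 47313167, plus strand) was at 550, 510 and 354 CPM in SD Mof+/+ and at 710, 473 and 524 CPM in SD Mof+/-. After TMM normalization the values were 484, 452 and 300 against 775, 519 and 623 CPM, and only on that scale did the groups not overlap. It was the only one of the 10 genes whose groups did not overlap after TMM, where 17.6% of all genes were higher and 18% lower without overlap. Its log2 fold change of 0.62 (95% interval -0.01 to 1.26, SE 0.28) had an adjusted p of 0.199 from edgeR, and with scaling by total counts it was 0.27. Col18a1 (chromosome 10, 77052178 to 77166548, minus strand) was at 176, 193 and 139 CPM against 136, 89.9 and 67.2 CPM. These CPM values did not overlap, but they did after TMM, and the log2 fold change was -0.45 (SE 0.29, adjusted p = 0.361).

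Lama4, Lamb1 and Lamc1 encode the α4, β1 and γ1 chains, which form one laminin trimer found in the walls of capillaries. Lamb1 (chromosome 12, 31265234 to 31329644, plus strand) was at 230, 284 and 245 CPM in SD Mof+/+ and at 398, 244 and 137 CPM in SD Mof+/-. Lamc1 (chromosome 1, 153218922 to 153332786, minus strand) was at 484, 517 and 392 CPM against 442, 209 and 131 CPM, and Lama4 (chromosome 10, 38965515 to 39110188, plus strand) at 321, 258 and 216 CPM against 311, 201 and 105 CPM. Replicate 1 was the highest and replicate 3 the lowest Mof+/- library for each chain, and the groups overlapped for all 3. The log2 fold changes were 0.37 (SE 0.34) for Lamb1, -0.50 (SE 0.39) for Lamc1 and -0.03 (SE 0.36) for Lama4, with adjusted p of 0.537, 0.461 and 0.964 from edgeR.

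Nidogens bind laminin and collagen IV, and perlecan carries heparan sulfate chains that hold growth factors. Nid1 (chromosome 13, 13437551 to 13512269, plus strand) was at 797, 983 and 656 CPM in SD Mof+/+ and at 1006, 656 and 342 CPM in SD Mof+/-. Nid2 (chromosome 14, 19751265 to 19811787, plus strand) was at 216, 219 and 92.7 CPM against 130, 76.7 and 31.4 CPM, and Hspg2 (chromosome 4, 137468769 to 137570630, plus strand) at 739, 597 and 334 CPM against 509, 191 and 376 CPM. All 3 overlapped between the genotypes. The log2 fold changes were 0.05 (SE 0.37) for Nid1, -0.82 (SE 0.49) for Nid2 and -0.28 (SE 0.42) for Hspg2, with adjusted p of 0.945, 0.332 and 0.716 from edgeR. The sign for Nid1 depended on the scaling, with -0.29 by total counts.

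**Figure D2:**
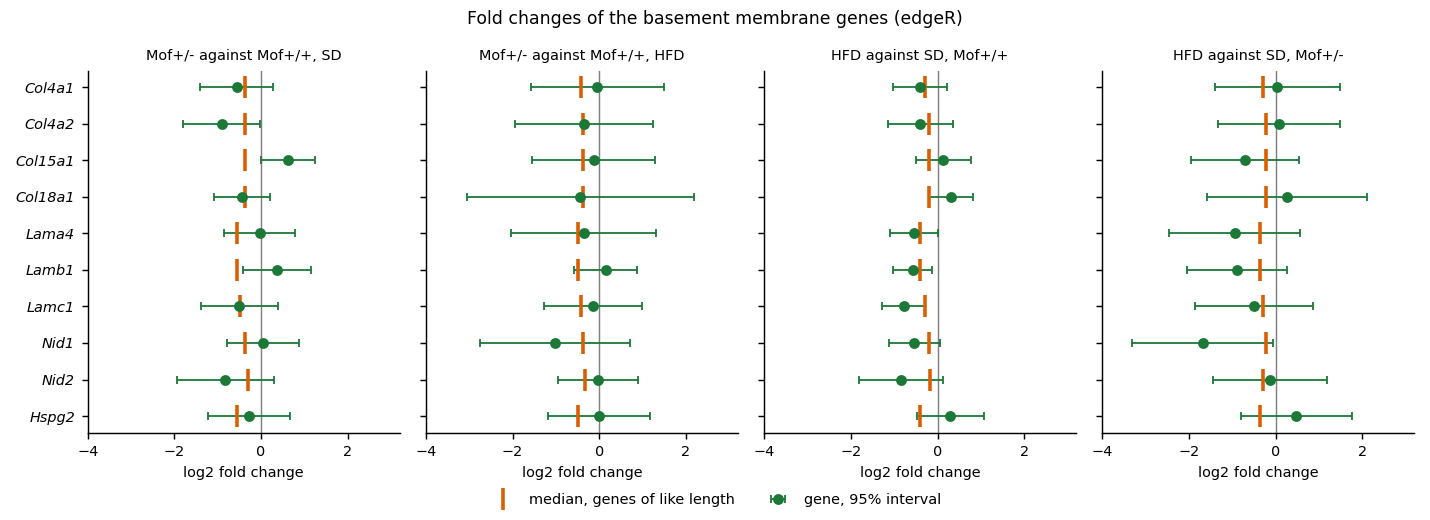
Log2 fold change of each basement membrane gene with its 95% interval from edgeR (green), beside the median of all genes in the same bin of exonic length (orange bar), for the 4 comparisons of groups. Col4a2 in the comparison of genotypes on SD, Lamb1 and Lamc1 in the comparison of diets in Mof+/+, and Nid1 in the comparison of diets in Mof+/- have intervals that leave out 0, none with an adjusted p under 0.05.

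Length was the next question, since the libraries differed in how CPM related to the exonic length of a gene. Spearman's rho across genes between length and log2 CPM, centred on each gene's mean, was 0.23 to 0.31 in the SD Mof+/+ libraries and -0.29 to 0.08 in the SD Mof+/- libraries. For the HFD libraries it was -0.05 and 0.02 with Mof+/+ and -0.14 and -0.04 with Mof+/-. Between genotypes on SD, the median log2 fold change ran from 1.03 to -0.55 from the shortest to the longest of 10 bins with equal numbers of genes. The basement membrane genes lay in the 4 bins of longest genes, whose medians were -0.30 to -0.55. Against these medians, 5 of the 10 were above and 5 below.

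Some genes changed place when set against genes of like length. Col15a1 was 1.0 above the median of its bin on the log2 scale, and Lamb1 was 0.93 above. Lama4 was 0.52 above, Nid1 0.43 above and Hspg2 0.28 above. Col4a2 was 0.53 and Nid2 0.52 below, and Lamc1, Col18a1 and Col4a1 lay 0.02, 0.07 and 0.19 below. With a smooth of log2 CPM on length removed from each library, the median of the 10 genes was 0.05, with 5 genes on each side of 0. Col15a1 then had a log2 fold change of 0.86 (adjusted p = 0.0999 from edgeR), Lamb1 0.72 (adjusted p = 0.148) and Col4a2 -0.68 (adjusted p = 0.293). Nid2, at -0.71 (adjusted p = 0.421 from edgeR), then had the largest negative value. With this correction 2.52% of all genes were called, and none of the 10.

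**Figure D3:**
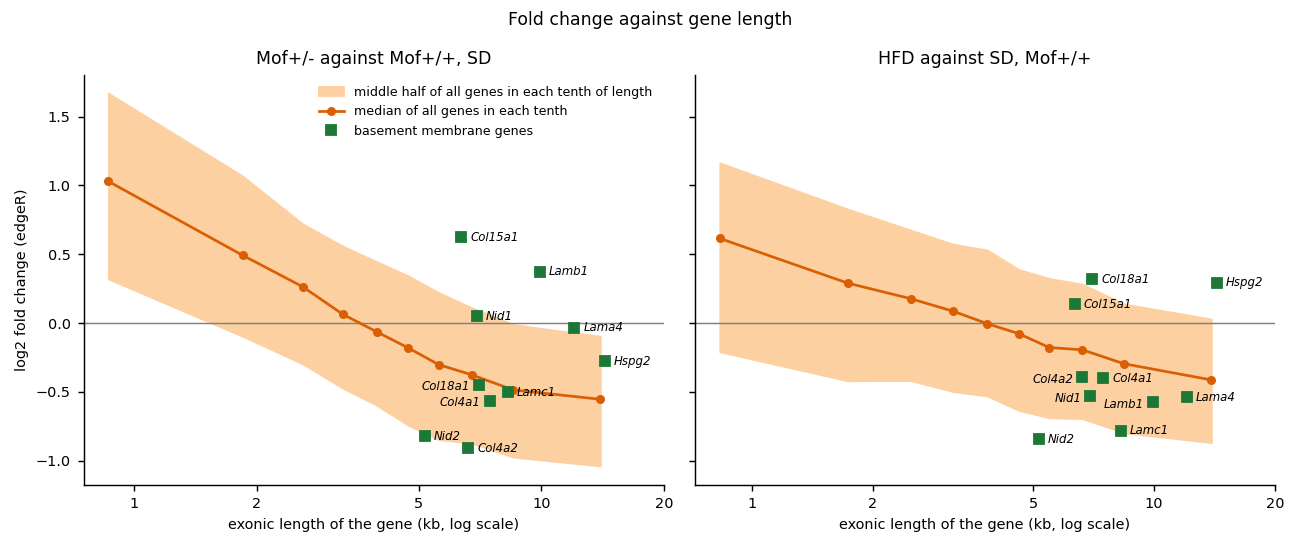
Log2 fold change from edgeR against the exonic length of the gene in kb (log scale), between genotypes on SD (left) and between diets in Mof+/+ (right). The orange line is the median and the band the range between quartiles of all genes in each of 10 length bins, and squares are the basement membrane genes. On the left, the line runs from 1.03 to -0.55, Col15a1, Lamb1 and Lama4 lie above the band, and Nid2 and Col4a2 lie at its lower edge.

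Ratios of counts within a library need no scaling between libraries. For 5 pairs of partners or homologues, the log2 ratio was compared between the SD genotypes with a two-sided exact permutation test over libraries, which with 3 against 3 cannot go below p = 0.1. The ratio of Col15a1 to Col18a1 counts was 3.12, 2.65 and 2.55 in SD Mof+/+ and 5.21, 5.27 and 7.80 in SD Mof+/-. The ratio of Lamb1 to Lamc1 was 0.475, 0.549 and 0.626 against 0.899, 1.17 and 1.05. The ratio of Lama4 to Lamc1 was 0.664, 0.5 and 0.549 against 0.703, 0.961 and 0.801. These 3 ratios were higher in every Mof+/- library than in any Mof+/+ library on SD. The ratio of Nid2 to Nid1 was 0.272, 0.223 and 0.141 against 0.130, 0.117 and 0.0919, lower in every Mof+/- library. With replicate 3 of each genotype exchanged, as the column headings have it, the groups overlapped for all 4 of these ratios. Each of these 4 had the smallest p that the design allows, 0.1 by the exact permutation test (adjusted p = 0.125 over the 5 pairs), and the log2 differences were 1.11, 0.92, 0.52 and -0.87.

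The ratio of Col4a2 to Col4a1, the pair with adjoining starts, was 0.792, 0.741 and 0.601 in SD Mof+/+ and 0.582, 0.483 and 0.681 in SD Mof+/-. Its groups overlapped, with a log2 difference of -0.29 (exact permutation p = 0.2, adjusted p = 0.2). With the length correction the log2 differences were -0.35 for this pair and 1.06, 0.99, 0.67 and -1.02 for the other 4 in the order given. On HFD, the ratio of Col4a2 to Col4a1 was 0.714 and 0.744 in Mof+/+ and 0.516 and 0.612 in Mof+/-. The ratio of Col15a1 to Col18a1 was 2.63 and 2.25 in Mof+/+ and 9.95 and 2.40 in Mof+/-, where the value of 9.95 came from 19 counts of Col18a1 in replicate 1. The ratio of Lamb1 to Lamc1 was 0.618 and 0.640 against 1.22 and 0.553, that of Lama4 to Lamc1 was 0.696 and 0.654 against 0.375 and 0.675, and that of Nid2 to Nid1 was 0.185 and 0.161 against 0.798 and 0.225. HFD Mof+/- replicate 2 lay on the side of the Mof+/+ libraries for Lamb1 to Lamc1, and replicate 1 did not.

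**Figure D4:**
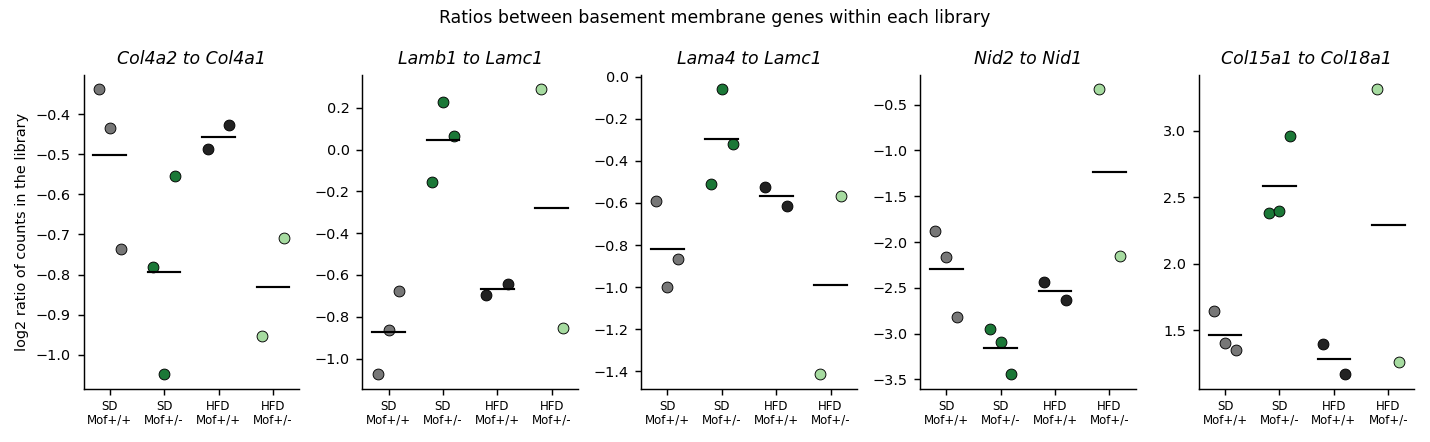
Log2 ratio of the counts of basement membrane genes within each library, by genotype and diet. Points are libraries and lines are group means. On SD, the Mof+/- points lie above all Mof+/+ points for Lamb1 to Lamc1, Lama4 to Lamc1 and Col15a1 to Col18a1, and below them for Nid2 to Nid1.

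Markers of other cell types differed between the same SD groups, where edgeR called 5.24% of the 13864 genes tested. The 10 endothelial markers summed to 1439 to 3406 CPM in SD Mof+/+ and to 379 to 500 CPM in SD Mof+/-, and none of them was at 0 in any library. All 10 had negative log2 fold changes, with a median of -1.94, and 5 were called lower. Of 8 mural markers, 4 were called lower, and their sum was 853 to 1259 CPM against 345 to 2506 CPM. The smooth muscle genes Acta2 and Myh11 had positive values and made the high end, with Acta2 at 982 and 1823 CPM and Myh11 at 318 and 519 CPM in Mof+/- replicates 2 and 3. Of 6 mesothelial markers, 4 were called higher, with sums of 23.8 to 59.1 CPM against 170 to 349 CPM, and 3 of 8 adipocyte markers were called higher, with sums of 19147 to 25932 CPM against 29722 to 35736 CPM. Of 8 stromal markers 3 were called higher, of 6 macrophage markers none was (edgeR), and 2 of 4 myelinating glia markers tested were called lower. With the length correction, which called 2.52% of all genes, 0 adipocyte markers and 1 stromal marker were called higher. The counts were then 1 glia, 5 endothelial and 5 mural markers lower and 4 mesothelial markers higher. The part of the cell mix, and of the sex of the mice, in the values of the basement membrane genes was not tested. In bulk tissue, fewer cells of a type and less RNA per cell cannot be told apart.

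Collagen IV and laminin have further chains that were not among the 10 genes, and most were at a small part of the level of the chains described. In SD Mof+/+, Col4a3 to Col4a6 were at 0.376 to 8.49 CPM per kb of exon, where Col4a1 and Col4a2 were at 94.0 to 225 CPM per kb. Among laminin α chains, Lama4 at 17.9 to 26.6 CPM per kb was above Lama2 (6.89 to 8.71), Lama5 (3.81 to 8.71), Lama1 (0.0792 to 0.600) and Lama3 (0 to 0.725). Among β chains, Lamb2 was above Lamb1 in SD Mof+/+, at 39.8 to 58.8 against 23.2 to 28.6 CPM per kb. In SD Mof+/- the order was the other way in each library, with Lamb1 at 40.1, 24.6 and 13.8 and Lamb2 at 34.5, 21.5 and 12.4 CPM per kb. In HFD Mof+/+ and HFD Mof+/- Lamb2 was again above Lamb1 in each library per kb of exon. Lamb1 has 9917 bases of exon over all transcripts but 5784 in its longest transcript, so this order depends on the length used. By CPM, Lamb1 was above Lamb2 in each HFD library. It was at 167 and 145 against 136 and 119 CPM in HFD Mof+/+. In HFD Mof+/- it was at 131 and 144 against 97.7 and 136 CPM. In SD Mof+/+ Lamb1 was at 230, 284 and 245 against 357, 313 and 242 CPM. Lamc1 was at 47.4 to 62.5 CPM per kb in SD Mof+/+, above Lamc3 at 1.91 to 2.45.

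**Figure D5:**
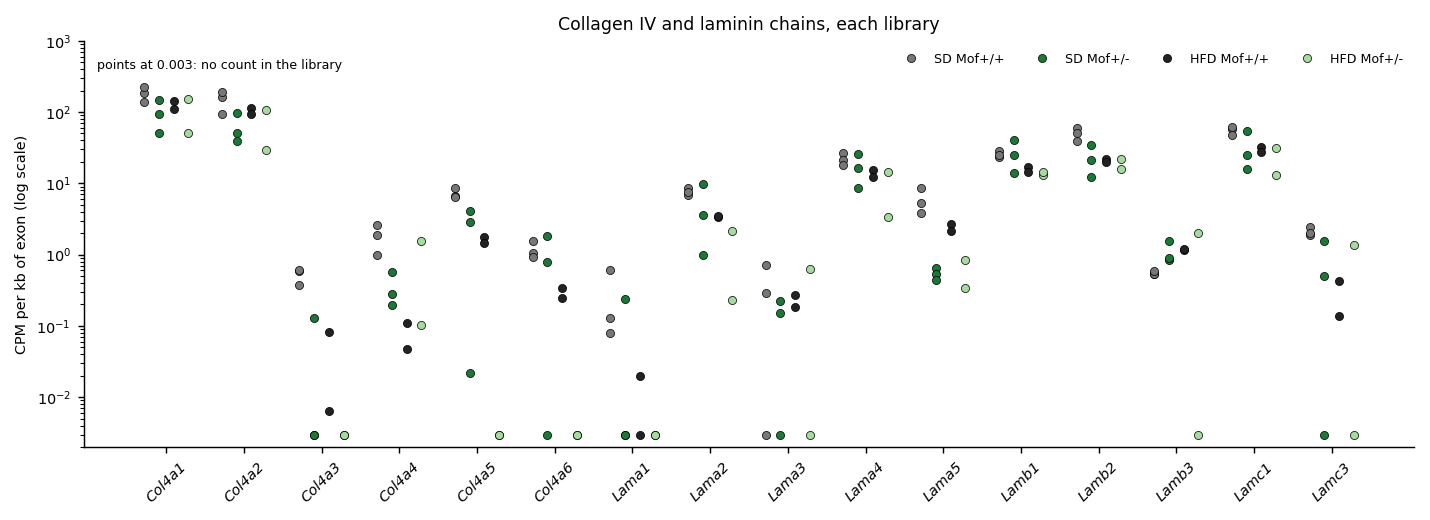
CPM per kb of exon (log scale) of collagen IV and laminin chain genes in each library, by genotype and diet. Points at the bottom mark libraries with no count. Col4a1 and Col4a2 lie highest, Lama4 is the highest laminin α chain and Lamc1 lies above Lamc3 in every library, and Lama5 is lower in the Mof+/- libraries on SD than in the Mof+/+ libraries.

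Other genes of the basement membrane were taken from 3 lists. Of 26 other components tested on SD, 1 was called in each direction, where 5.24% of all genes were called, and their median was -0.39 beside -0.07 over all genes, and -0.015 against the bins of like length. Fbln1, which encodes the matrix glycoprotein fibulin-1, was at 56.5 to 59.4 CPM in Mof+/+ and at 207 to 248 CPM in Mof+/-, a log2 fold change of 2.33 (SE 0.21, adjusted p = 0.00475 from edgeR). Lama5, the laminin α5 chain, fell from 43.4 to 99.2 CPM in Mof+/+ to 5.06 to 7.34 CPM in Mof+/-, a log2 fold change of -3.09 (SE 0.38, adjusted p = 0.0122). Lamb1 and Lamc1, whose products form a trimer with the α5 chain, were at 0.37 and -0.50 on the same scale, and the difference between genes was not tested. Of 17 genes for collagen folding and assembly, none was called (edgeR), although 13 were positive and 9 were higher without overlap, where 17.6% of all genes were. Their median was 0.48, and 0.51 against the bins of like length. Of 17 receptors, 1 was called lower, Sdc3, a transmembrane heparan sulfate proteoglycan (log2 fold change -1.23, SE 0.28, adjusted p = 0.0452 from edgeR). Sdc3 lost its call with the length correction (adjusted p = 0.0587) and in 5 of 6 fits without 1 library, with log2 fold changes of -1.04 and of -1.37 to -1.0 over the 6. Lama5 lost its call without Mof+/+ replicate 1 (-2.69) or Mof+/- replicate 2 (-3.05).

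The same question was asked on HFD with 2 libraries per genotype. None of the 10 genes passed the adjusted threshold with edgeR, and 0% of the 14120 genes tested did. DESeq2 called none of the 10 and 1.48% of all genes, and none had an unadjusted edgeR p under 0.05, where 3.34% of all genes had one in the higher and 8.92% in the lower direction. The median log2 fold change was -0.14 beside -0.24 over all genes, with 9 genes negative and Lamb1 positive at 0.15 (SE 0.28). Against the bins of like length, 8 of the 10 lay above and 2 below, with a median of 0.26. Scaling by total counts turned Lamb1 to -0.18.

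Most values on HFD depended on which Mof+/- library was used, with Lamb1 and Nid2 the exceptions. Col4a1 was at 1073 and 822 CPM in HFD Mof+/+ and at 380 and 1141 CPM in HFD Mof+/- replicates 1 and 2. Col18a1 was at 214 and 174 CPM against 18.2 and 224 CPM, and Lama4 at 188 and 148 CPM against 40.2 and 176 CPM. For these genes replicate 1 lay below both Mof+/+ libraries and replicate 2 lay among or above them. Hspg2 was at 655 and 599 CPM against 311 and 709 CPM, and Nid2 at 110 and 70.9 CPM against 64.2 and 77.0 CPM. Nid1 was the only gene of the 10 without overlap after TMM, at 593 and 440 CPM against 80.4 and 342 CPM, where 35.2% of all genes were lower without overlap. Its log2 fold change was -1.03 (SE 0.66, adjusted p = 0.702 from edgeR).

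Without the library labelled HFD Mof+/- replicate 1, the one with the muscle and mitochondrial RNA, 8 of the 10 genes were positive with a median of 0.24, and none was called, although 27.2% of all genes were. Nid1 was then at -0.43 and Nid2 at -0.06. Without replicate 2, 7 of the 10 were called lower with a median of -0.96, among 47.9% of all genes called, and Lamb1, Nid2 and Hspg2 were not called. Both of these fits left a single Mof+/- library, whose spread was taken from the other group.

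The third question was how HFD and age together related to these genes in Mof+/+ mice. None of the 10 passed with edgeR, where 9.75% of 14939 genes did. Lamb1 and Lamc1 had an unadjusted p under 0.05, where 13.8% of all genes had one in the lower direction, and DESeq2 called both lower (adjusted p = 0.0149 for Lamb1 and 0.00156 for Lamc1), where it called 20.0% of all genes. The median was -0.47 beside -0.04 over all genes, with 7 genes negative and Col15a1, Col18a1 and Hspg2 positive.

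The 3 laminin chains and Nid1 were lower on HFD without overlap, where 23.5% of all genes were. Lamc1 was at 484, 517 and 392 CPM on SD and at 270 and 226 CPM on HFD, a log2 fold change of -0.78 (95% interval -1.28 to -0.28, SE 0.21, adjusted p = 0.0627 from edgeR). Lamb1 was at 230, 284 and 245 CPM against 167 and 145 CPM (-0.58, SE 0.19, adjusted p = 0.101). Lama4 was at 321, 258 and 216 CPM against 188 and 148 CPM (-0.54, SE 0.23, adjusted p = 0.183), and Nid1 at 797, 983 and 656 CPM against 593 and 440 CPM (-0.53, SE 0.25, adjusted p = 0.220). Nid2 had the largest negative value, -0.84 (SE 0.41, adjusted p = 0.225), with overlap, since SD replicate 3 at 92.7 CPM lay between the HFD libraries at 110 and 70.9 CPM. Without SD Mof+/+ replicate 3, Lamc1 (-0.90) and Nid2 (-1.16) were called lower, among 14.9% of all genes called.

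Collagen IV and perlecan showed smaller differences between the diets. The log2 fold changes were -0.40 (SE 0.27) for Col4a1 and -0.39 (SE 0.32) for Col4a2. Col15a1 (0.14, SE 0.27), Hspg2 (0.29, SE 0.33) and Col18a1 (0.32, SE 0.21) were at or above 0 and overlapped between diets. The bin of longest genes had a median of -0.41 in this comparison and that of the shortest 0.62, and Hspg2 lay 0.71 and Col18a1 0.51 above the medians of their bins. Lamc1 lay 0.49 and Nid2 0.67 below, and after the length correction the median of the 10 genes was -0.21 and Lamc1 was at -0.54 (adjusted p = 0.145 from edgeR). That correction called 7.44% of all genes and none of the 10.

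Genes of the other lists were called between the diets in Mof+/+. Of 27 other components, 7 were called lower and 1 higher, with a median of -0.70, where 9.75% of all genes were called. They included Col4a4 (-4.41, SE 0.67, adjusted p = 0.0134 from edgeR), Lamc3 (-2.76, SE 0.65, adjusted p = 0.0444) and Col4a5 (-2.05, SE 0.26, adjusted p = 0.00829) among those that fell, and Hmcn2, for hemicentin 2 (2.18, SE 0.21, adjusted p = 0.00436), which rose. Of 17 assembly genes, Serpinh1, the collagen chaperone (0.95, SE 0.20, adjusted p = 0.0337), and Colgalt1, which glycosylates collagen (0.82, SE 0.19, adjusted p = 0.0416), rose and 14 were positive. Of 18 receptors, the proteoglycans Gpc1 (1.61) and Sdc1 (1.13) rose, and the laminin receptors Itga3 (-2.08), Bcam (-1.45) and Dag1 (-0.84) fell. Lamc3, Serpinh1, Sdc1 and Dag1 lost their calls with the length correction (adjusted p = 0.0565, 0.0754, 0.0569 and 0.0653 from edgeR). Of the 5 fits without 1 library, Sdc1 lost its call in 5, Lamc3, Serpinh1, Colgalt1, Itga3 and Dag1 in 4, Col4a4, Gpc1 and Bcam in 3, Col4a5 in 2 and Hmcn2 in 1. All 10 endothelial markers were negative (median -1.51, 4 called lower), with sums of 1439 to 3406 CPM on SD and 586 and 672 CPM on HFD. Of 8 mural markers 5 were called lower (median -1.33), with sums of 853 to 1259 CPM on SD and 460 and 555 CPM on HFD, and of 6 macrophage markers 3 were called higher and 1 lower, with sums of 873 to 1580 CPM and of 3879 and 4908 CPM. Of 8 adipocyte markers 2 were called lower and 1 higher (median -0.66), with sums of 19147 to 25932 CPM on SD and 11589 and 15292 CPM on HFD, and 2 of 5 myelinating glia markers tested were called lower. With the length correction, which called 7.44% of all genes, 3 endothelial markers and 1 glia marker were called lower. The counts for mural, macrophage and adipocyte markers did not change. The part of these cell types in the values of the basement membrane genes was not tested.

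In Mof+/- mice, where HFD is also set apart from SD by the sex-linked genes, none of the 10 genes passed between the diets with edgeR, 0% of 13610 genes did, and DESeq2 called none of the 10 and 2.95% of all genes. Nid1 alone had an unadjusted p under 0.05, where 5.48% of all genes had one in the lower direction. It was at 1006, 656 and 342 CPM on SD and at 80.4 and 342 CPM on HFD, a log2 fold change of -1.69 (95% interval -3.31 to -0.06, SE 0.70, adjusted p = 0.567). Without HFD Mof+/- replicate 1 it was -1.07, and without replicate 2 it was -2.93. Nid1 and Lamb1 (-0.89, SE 0.50, adjusted p = 0.670) were the only ones without overlap after TMM, where 19.7% of all genes were lower without overlap. The median of the 10 was -0.33 beside -0.26 over all genes, and the length trend was near 0 (Spearman's rho across genes -0.01, against -0.43 between genotypes on SD).

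The difference between the genotype effects on the 2 diets was tested as an interaction over all 10 libraries. None of the 10 genes was called by edgeR or DESeq2, where edgeR called 0.0881% of 15897 genes and DESeq2 3.08%. None had an unadjusted edgeR p under 0.05, where 3.98% of all genes had one in the higher and 8.41% in the lower direction. The largest values were -1.17 for Nid1 (95% interval -2.82 to 0.49, SE 0.76, adjusted p = 0.565) and -0.85 for Col15a1 (-2.15 to 0.46, SE 0.59, adjusted p = 0.597). Both intervals included 0. In fits without 1 library the values ran from -2.42 to -0.49 for Nid1 and from -1.70 to -0.29 for Col15a1. Against the bins of like length, 6 of the 10 lay above and 4 below, with Nid1 0.95 below and Nid2 0.96 above. Without HFD Mof+/- replicate 2, 3 of the 10, Col15a1 (-1.70), Col18a1 (-2.64) and Nid1 (-2.42), were called lower, among 17.7% of all genes called. That fit left replicate 1 as the only HFD Mof+/- library, with its spread taken from the other groups.

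Across the 10 libraries, genes outside the lists were ranked by how near they lay to the mean profile of the 10 basement membrane genes. The lists, which hold other matrix genes, were left out, so the ranking says nothing of the genes in them. The measure was the root mean square difference of centred log2 TMM-normalized CPM over 10 libraries, compared for 15758 genes outside the lists. Pogk (0.134), Ube4b (0.176), Rps6ka3 (0.179), Col4a3bp (0.19) and Golga2 (0.198) were nearest, where the median over all genes was 1.37. They had 5500 to 9586 bases of exon, within the range of the 10 genes. Among the 10 themselves, Col4a1 (0.205) and Lamc1 (0.221) were nearest to the mean, and Hspg2 (0.571), Col18a1 (0.557) and Nid1 (0.511) farthest. No p is given, since these values share libraries.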

How the data were processed

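RNA-seq of visceral WAT was analysed in 10 libraries from unstranded poly(A) libraries, so reads of a gene and an overlapping antisense gene cannot be told apart. The deposited counts per gene were made by the authors, who aligned paired reads to GRCm38 with STAR and counted them with featureCounts through snakePipes. From these counts, CPM were computed over all counts on genes, and groups were compared as the labels give them. Each pair of groups was fitted with edgeR 4.0.16 (TMM factors, filterByExpr, quasi-likelihood test, Benjamini-Hochberg adjustment at 0.05), and the interaction was fitted over all libraries. The labels do not say that libraries of a group came from separate animals, and p-values measure the spread between libraries. Exonic lengths came from GENCODE, with 47310 of 47937 identifiers matched. The length correction removed a lowess curve (span 0.3) of log2 CPM on length. DESeq2 1.42.0 was an alternative. The fits were tested on simulated data. From each list of companion genes and in each comparison, up to 3 genes higher and 3 lower were named, ranked by size of change among genes called whose mean reached 50 counts. The members and gene lists were chosen with earlier results of these data known. Intervals of CPM cover counting error only. Same-numbered libraries of the 2 genotypes did not deviate together (r = 0.005 to 0.026 across genes), so the fits carry no replicate block.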

Additional observations from a re-analysis of the deposited data

Results flagged for a closer look

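The difference between the Mof+/- and Mof+/+ libraries in Fbln1, which encodes fibulin-1, was not the same on the 2 diets by a test of the interaction. On SD that difference is of genotype and sex together, which cannot be told apart, since only the SD Mof+/- libraries held Xist and no Y-linked counts. The interaction was -4.06 on the log2 scale (SE 0.48, adjusted p = 0.00669 from edgeR over all 10 libraries), and it lost its call in 3 of 10 fits without 1 library (-4.53 to -3.55 over the 10) and with the libraries grouped by column heading (-2.41). Fbln1 was at 56.5 to 59.4 CPM in SD Mof+/+ and 207 to 248 CPM in SD Mof+/-, and at 55.6 and 56.4 CPM in HFD Mof+/+ and 19.2 and 10.8 CPM in HFD Mof+/-. The Mof+/- libraries were all higher on SD and both lower on HFD. None of the 10 basement membrane genes described above had such an interaction with edgeR, where none had an unadjusted p under 0.05, or with DESeq2. The interaction was negative for all 6 mesothelial markers (median -3.43) and all 8 stromal markers (median -1.36), and none was called by edgeR. It was positive for all 10 endothelial, 9 skeletal muscle and 6 myelinating glia markers tested. Over all genes the median was -0.41. The part of the cell mix in the Fbln1 values was not tested.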

How the results depend on the processing

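None of the 10 genes described was called by edgeR in any comparison of the report, and the precision is set by 2 or 3 libraries per group, 1 of them with 1044355 counts. Between diets in Mof+/+, DESeq2 called 2 of the 10 lower (20.0% of all genes called), a minimum of 10 counts in every library called 1 (16.5%) and scaling by total counts called 1 (9.57%). Scaling by total counts, an alternative chosen after seeing the data, turned Nid1 on SD to -0.29, Lamb1 between genotypes on HFD to -0.18 and the interaction of Col18a1 to 0.14. That interaction was also 0.0067 with DESeq2, 0.026 with DESeq2 size factors in edgeR and 0.030 with the minimum of 10 counts, which also turned Col4a1 between diets in Mof+/- to -0.015. The causes were not tested.

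With the column headings in place of the labels, edgeR called 0 genes on SD and 0 between diets in Mof+/+. On SD the median was then -0.076, Col15a1 0.016, Col4a1 -0.15 and Lama4 0.21. The interaction of Fbln1 was -2.41 and was not called, as edgeR called 0 genes. With those headings Col15a1 between diets in Mof+/+ was -0.19, Col4a1 and Col4a2 between diets in Mof+/- -0.18 and -0.12, the interaction of Lamc1 -0.23 and the median interaction -0.24.

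With the length correction, the median was 0.050 on SD, 0.017 between genotypes on HFD and -0.14 for the interaction. Hspg2 and Lama4 on SD were 0.29 and 0.38, and on HFD Col15a1, Col4a1, Hspg2, Lamc1 and Nid2 were 0.011, 0.12, 0.29, 0.037 and 0.022. The interaction of Hspg2 was -0.13. With the longest transcript as length, these values were 0.15, 0.058 and -0.26 for the medians, 0.47 and 0.36, then 0.039, 0.17, 0.33, 0.077 and 0.11, and -0.25.

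The replicate block was tried although the numbers do not pair the libraries. It turned Nid1 on SD to -0.038, Nid2 on HFD to 0.0067, Col15a1 between diets in Mof+/+ to -0.063, and Col18a1, Col4a1 and Col4a2 between diets in Mof+/- to -0.65, -0.36 and -0.27, with a median interaction of -0.028. Under the block 1 of the 10 was called lower between diets in each genotype, Nid2 in Mof+/+ (-1.19) and Nid1 in Mof+/- (-2.22). Over all genes the block called 428 on SD against 727, 200 against 0 on HFD, 1460 against 1457 and 245 against 0 between diets, and 10 against 14 for the interaction.

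Leaving out 1 library at a time gave these ranges of log2 fold change. On SD the median was -0.64 to -0.16, and the ranges were -0.97 to -0.27 for Col4a1, -1.08 to -0.19 for Lamc1, -1.34 to -0.45 for Nid2, -0.73 to -0.26 for Col18a1, -0.42 to 0.27 for Lama4, -0.034 to 0.66 for Lamb1, -0.34 to 0.35 for Nid1 and -0.56 to 0.054 for Hspg2. Between genotypes on HFD, 0 to 7 genes were called lower, with a median of -0.96 to 0.24, and the ranges were -0.93 to 0.44 for Col4a1, -1.42 to 0.19 for Col4a2, -1.0 to 0.34 for Col15a1, -3.02 to 0.38 for Col18a1, -1.67 to 0.24 for Lama4, -0.82 to 0.24 for Lamc1, -0.32 to 0.30 for Nid2 and -0.62 to 0.35 for Hspg2. Between diets in Mof+/+, 0 to 2 were called lower in fits without 1 SD library. The median was -0.63 to -0.27, Col15a1 -0.12 to 0.39, Hspg2 0.020 to 0.55 and Col18a1 0.18 to 0.47. Col4a1 was -0.58 to -0.21, Col4a2 -0.65 to -0.18, Nid1 -0.73 to -0.32 and Nid2 -1.16 to -0.55. The laminin chains were -0.69 to -0.36 for Lama4, -0.65 to -0.47 for Lamb1 and -0.90 to -0.65 for Lamc1. Between diets in Mof+/-, the median was -1.06 to 0.24, and the ranges were -0.82 to 0.54 for Col4a1, -0.96 to 0.65 for Col4a2, -2.31 to 1.08 for Col18a1, -1.16 to 0.074 for Lamc1, -0.50 to 0.40 for Nid2 and -0.11 to 0.86 for Hspg2. For the interaction, 0 to 3 were called lower, with a median of -0.51 to 0.67, and the ranges were -0.43 to 0.99 for Col4a1, -0.58 to 1.09 for Col4a2, -2.64 to 0.81 for Col18a1, -1.71 to 0.26 for Lama4, -0.58 to 0.14 for Lamb1, -0.39 to 0.89 for Lamc1 and -0.41 to 0.61 for Hspg2.

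Counts over all genes depended on the setting. On SD, edgeR called 727, DESeq2 2211, edgeR without the filter 1840, with the minimum of 10 counts 1235 and in 1 fit of all libraries 194. Without 1 library, edgeR called 17 (without Mof+/- replicate 2), 19, 35 or 74 (without Mof+/+ replicates 1, 2 or 3), 668 or 1026 (without Mof+/- replicates 3 or 1) on SD, and 64 to 2230 between diets in Mof+/+, where 1457 were called with all. DESeq2 called 209 genes on HFD, 2990 between diets in Mof+/+, 402 in Mof+/- and 490 for the interaction.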
